A study of Mus musculus with 768 samples.

Results

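The collagen genes were examined in single Schwann cells (SCs) of the mouse sciatic nerve at postnatal day 5. They were taken as every gene whose symbol consists of Col, a type number, the letter a and a chain number, which gave 44 of the 25700 genes in the table. The cells came from pups on the C57bl/6J background with the genotype P0Cre-/+ : ReYFP Tg/+ : βAct-DsRed Tg/+, in which Cre driven by the P0 promoter switches on eYFP in the SC lineage, and DsRed is carried by all cells. All wells share this genotype and age, and no group was treated. Single eYFP-positive cells were sorted into 2 plates of 384 wells, and each plate held cells pooled from 1 male and 1 female pup not used for the other plate. RNA was read with Smart-Seq2, a full-length protocol without molecular identifiers.

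The 4 cell states were set from transcripts that are not collagens, in wells with at least 1500 detected genes and outside the plate corners. A cell was cycling when at least 3 of 10 cell cycle transcripts had 5 reads or more. The remaining cells were immature with less than 10 CPM (reads scaled to a common library size) of Ncmap, a myelin protein transcript, intermediate with less than 30000 CPM of Pmp22, another myelin protein transcript, and myelinating above both borders. Plates 1 and 2 gave 32 and 25 cycling, 106 and 122 immature, 79 and 70 intermediate, and 108 and 113 myelinating wells, or 655 of 768 wells. Reads were summed per plate and state, so that each state had n = 2 sums from separate animals, and levels are CPM after TMM scaling (trimmed mean of M values).

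Collagens are proteins of the extracellular matrix built of chains in which glycine leads each triplet of residues (Gly-X-Y), wound as a triple helix. Fibrillar collagens assemble into the fibrils of connective tissue, such as the endoneurium around nerve fibers. Basement membrane collagens form networks or attach to them, and each SC with its axons is wrapped in a basal lamina. The other collagens here include the FACIT group, which decorates fibrils, network-forming, transmembrane and beaded filament collagens, and chains without a class. Of the 44 genes, 11 were placed among the fibrillar, 9 among the basement membrane and 24 among the other collagens.

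The classes differ in the sequence of the triple helix. The longest unbroken run of Gly-X-Y triplets in the encoded chain, computed from the GENCODE transcript with the longest reading frame, was 337 to 344 triplets in 9 of 11 fibrillar chains and 217 and 216 triplets in Col27a1 and Col24a1. The 9 basement membrane chains had interrupted helices with longest runs of 30 to 75 triplets. Among the other collagens it ranged from 23 triplets in Col26a1 to 113 triplets in Col9a1, Col9a2, Col9a3 and Col22a1. Col4a1 (ENSMUSG00000031502, chr8:11198423-11312826, minus strand) and Col4a2 (ENSMUSG00000031503, chr8:11312805-11449287, plus strand), which encode the common chains of the type IV network, lie head to head and overlap by 22 bases in the GENCODE annotation (build GRCm38). The overlap is shown because both genes start in it.

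Col4a1 and Col4a2 overlap (chr8:11312805-11312826, plus strand): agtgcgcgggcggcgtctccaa

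RefSeq (GRCm38.p6) gave start sites for 35 of the 44 genes, with 38 start sites in all. The 250 bases upstream of 2 genes with large differences between states, Col3a1 and Col11a1, are shown 5′ to 3′. Capitals mark matches on either strand to the CCAAT box, the TATA box spelled TATAAA, the GC box spelled GGGCGG or the letters of Sox family sites spelled ACAAAG.

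Col3a1 (chr1:45311288-45311537, plus strand): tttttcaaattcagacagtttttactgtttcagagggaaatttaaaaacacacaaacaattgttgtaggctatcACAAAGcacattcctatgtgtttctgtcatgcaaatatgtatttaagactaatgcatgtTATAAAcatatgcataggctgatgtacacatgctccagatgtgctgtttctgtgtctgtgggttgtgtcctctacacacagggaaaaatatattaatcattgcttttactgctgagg

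Col11a1 (chr3:114030290-114030539, plus strand): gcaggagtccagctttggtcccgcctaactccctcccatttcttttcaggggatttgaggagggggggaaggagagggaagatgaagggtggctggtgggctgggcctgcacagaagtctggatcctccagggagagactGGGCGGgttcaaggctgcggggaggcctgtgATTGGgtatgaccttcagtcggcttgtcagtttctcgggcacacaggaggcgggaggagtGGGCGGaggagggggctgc

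The Col3a1 window held TATAAA at base -117 and ACAAAG at base -176 from the start site, and no GGGCGG. The Col11a1 window held CCAAT (as ATTGG on the plus strand) at base -79 and GGGCGG at bases -110 and -19. Of the windows of this length at all 32851 RefSeq start sites, 33.8% held CCAAT, 12.4% TATAAA, 32.7% GGGCGG and 16.5% ACAAAG. Of the 38 collagen windows, 34.2%, 13.2%, 57.9% and 10.5% held these letters. None of the matches was tested for use.

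The retained wells held 219192586 reads on plate 1 (median 593534 per well) and 202742928 on plate 2 (median 559286). Median reads per well were 418998.5 to 476353.5 in immature and 719230.0 to 819461.5 in myelinating sums. The SC markers Sox10, S100b, Erbb3, Cdh19 and Egr2 were read in all 8 sums. Ncam1, an immature SC marker, was at 462 and 425 CPM in immature and 3.50 and 4.53 CPM in myelinating sums, and the myelin transcripts Mbp, Mag, Prx and Pmp2, which the state rule did not use, were all called higher in myelinating cells (edgeR, adjusted p under 0.05). Scaling moved the changes. Without TMM scaling the median log2 change of all genes between myelinating and immature cells was -0.42 in place of -0.04, a shift of -0.38.

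Fibroblast-like cells of the nerve are a known source of collagen transcripts, and their markers were low. Of the 9 fibroblast-like markers 2, Dpt and Clec3b, had no read, Pdgfra stayed at 1.12 CPM or less and Dcn at 27.9 CPM or less. Pcolce2 was at 33.8 CPM in the intermediate sum of plate 2 and at 2.73 CPM or less in every other sum. Summed over the list, the level was 2.68 to 28.2 CPM in cycling, 14.8 to 19.3 CPM in immature, 31.0 to 49.3 CPM in intermediate, 9.80 to 15.2 CPM in myelinating, and 4 members were tested between myelinating and immature cells with none called. The pericyte list summed to 0 to 5.60 CPM in cycling, 6.31 to 7.35 CPM in immature, 42.0 to 43.4 CPM in intermediate, 47.5 to 53.9 CPM in myelinating, nearly all of it Pdgfrb, with Rgs5 and Kcnj8 at 0. The endothelial list summed to 0.910 to 14.1 CPM in cycling, 25.0 to 32.8 CPM in immature, 40.3 to 94.1 CPM in intermediate, 112 to 145 CPM in myelinating, with Pecam1 and Cdh5 at 0 and 1 of 2 members tested called higher in myelinating than in immature cells (edgeR), and the immune list to 2.10 to 12.5 CPM in cycling, 1.03 to 6.12 CPM in immature, 0.128 to 0.210 CPM in intermediate, 0 to 2.97 CPM in myelinating, with Ptprc and Lyz2 at 0 and 1 read of C1qa. The perineurial list summed to 64.7 to 103 CPM in cycling, 77.7 to 92.3 CPM in immature, 96.2 to 137 CPM in intermediate, 66.1 to 84.2 CPM in myelinating. The 27 wells with 5 reads or more of Pdgfra, Dcn, Lum, Dpt or Rgs5 held 1.48% to 11% of the reads of each of the 16 collagens described below, and results without them are given where a call differs. Pdgfrb had 5 reads or more in 130 wells, 1 cycling, 10 immature, 41 intermediate and 78 myelinating. A wider exclusion added Pdgfrb to these markers and left 505 wells. It removed wells unevenly, with 97 and 113 immature and 69 and 73 myelinating wells left (plates 1 and 2). Pcolce2 was not used to leave out wells. Beyond these exclusions, the part of other cell types in the results was not tested.

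Collagens made up 0.581% and 0.582% of the reads in immature sums and 0.205% and 0.225% in myelinating sums, and 3 fibrillar genes led them. Of the 44 genes, 37 had at least 1 read, 33 passed the filter on low counts for testing, and 16 had a mean of 20 CPM or more over the 8 sums. These 16 were 8 of 11 fibrillar, 3 of 9 basement membrane and 5 of 24 other collagens. The 7 genes without a read were Col4a3, Col24a1, Col6a4, Col6a5, Col6a6, Col13a1 and Col17a1. Col22a1, Col25a1, Col6a2 and Col10a1 had 3 to 25 reads in all and were not tested.

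Per kilobase of transcript, which allows levels to be compared between genes, Col1a2 stood first with a mean level of 255 CPM per kb over the 8 sums. Col3a1 followed with 190.4, Col1a1 with 86.6 and Col4a2 with 35.4 CPM per kb. Col14a1 and Col4a1, at 26.1 and 25.7 CPM per kb, were neighbors whose ranges over the sums overlapped. The order was not the same in every state. In immature sums Col1a2 was at 333 ± 22.3 and Col3a1 at 264 ± 32.0 CPM per kb (mean ± SD, n = 2), whereas in myelinating sums they were at 142 ± 10.1 and 30.1 ± 3.23, with Col4a2 at 54.4 ± 10.1 above Col3a1. The first 6 places of the mean over the 8 sums were the same in 2 other settings, chosen after the values were seen. In the one, all exons of a gene were taken as its length, and in the other each well had the same weight. With all exons Col1a2 and Col3a1 were close, at 109.8 and 107.9 CPM per kb. The order within a state was not checked in these settings.

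Summed over the class, fibrillar transcripts were at 811 and 1047 CPM per kb in cycling (plates 1 and 2), 768 and 785 in immature, 428 and 378 in intermediate and 230.2 and 254 in myelinating sums. The myelinating values were the lowest, and the ranges of immature, intermediate and myelinating sums did not overlap. Basement membrane transcripts were at 62.1 and 73.5, 66.7 and 57.5, 69.3 and 64.7 and 88.5 and 101 CPM per kb in the same order, highest in myelinating sums. Other collagens were at 117 and 100.4, 94.7 and 90.3, 50.3 and 69.5 and 109 and 104 CPM per kb, lowest in intermediate sums. The make-up of the collagen pool differed by state. Fibrillar transcripts were 82.6 and 84.2% of the collagen level per kb in immature and 53.8 and 55.3% in myelinating sums, while basement membrane transcripts were 7.18 and 6.17% and 20.7 and 22%. Levels are after TMM scaling, with factors of 0.851 and 0.857 in myelinating and 1.05 and 1.03 in cycling sums. Scaled by library size alone, the basement membrane levels of these 2 states overlapped. The class totals were not tested. They are shares of reads, so that the amount of RNA per cell is not measured.

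**Figure D1:**
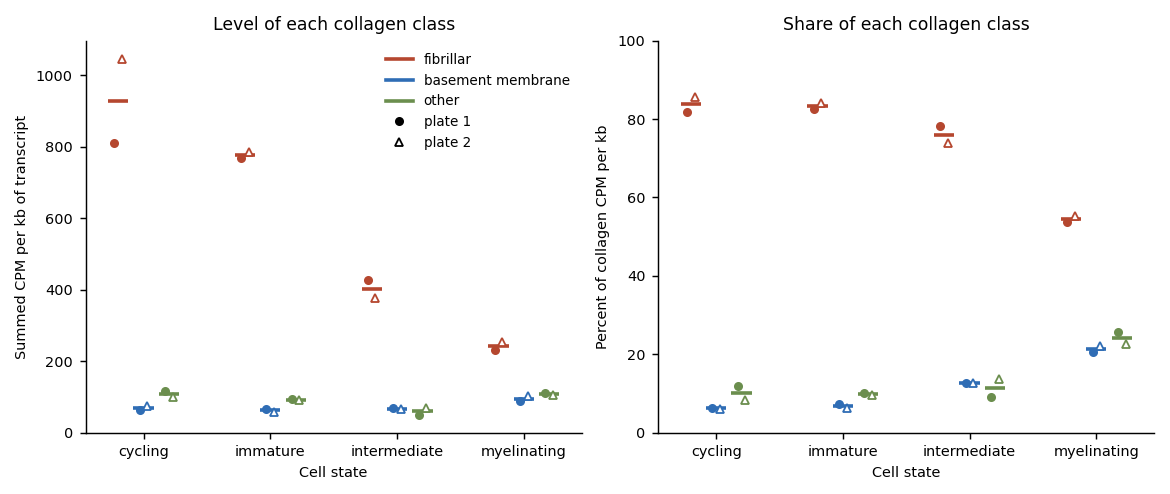
Summed level of fibrillar, basement membrane and other collagens per state, in CPM per kilobase of transcript (left, y axis) and as percent of the collagen total (right, y axis), by cell state (x axis). Points are the sums of plate 1 and plate 2 and lines their mean (n = 2). Fibrillar transcripts stood at 768 and 785 CPM per kb in immature and 230.2 and 254 in myelinating sums, while the basement membrane share was highest in myelinating sums.

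Between myelinating and immature cells, 7 collagens were called lower and 1 was called higher in myelinating cells among the 33 tested (edgeR quasi-likelihood test, Benjamini-Hochberg adjustment over all genes tested, adjusted p under 0.05). The 7 were the fibrillar genes Col1a1, Col1a2, Col3a1, Col11a1 and Col27a1, the basement membrane gene Col18a1 and the FACIT gene Col16a1, and the 1 higher was Col4a2. Over all genes tested, 2.51% were called lower and 2.59% higher in this comparison. By class, 5 of 10 fibrillar genes tested were lower and none higher, with 1 more at an unadjusted p under 0.05 and by DESeq2 (Col5a2). Of 8 basement membrane genes tested 1 was lower and 1 higher, with 3 at an unadjusted p under 0.05 and 2 called by DESeq2. Of 15 other collagens 1 was lower, with 9 at an unadjusted p under 0.05 and 8 called by DESeq2 (5 lower and 3 higher). DESeq2 called 6 of 10 fibrillar and 8 of 15 other collagens, so that the gap between these classes in calls depended on the tool. Those 8 include Col8a2, Col6a1 and Col6a3, which had almost no reads in 1 of the 2 states. The difference between classes was not tested. Here and below, the share over all genes is given for edgeR calls of the main fit only. Counts by DESeq2, at an unadjusted p or in other settings have no such share beside them. An excess over all genes cannot be read from those counts. Over the 16 genes with 20 CPM or more, the median log2 change was -1.57 for the 8 fibrillar, 0.55 for the 3 basement membrane and 0.13 for the 5 other collagens, beside -0.04 for all genes tested. Each of the 8 called genes changed the same way in both plates. Without TMM scaling 10 collagens were lower and none higher, and Col4a2 was no longer called although its log2 change stayed positive ( 0.739).

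**Figure D2:**
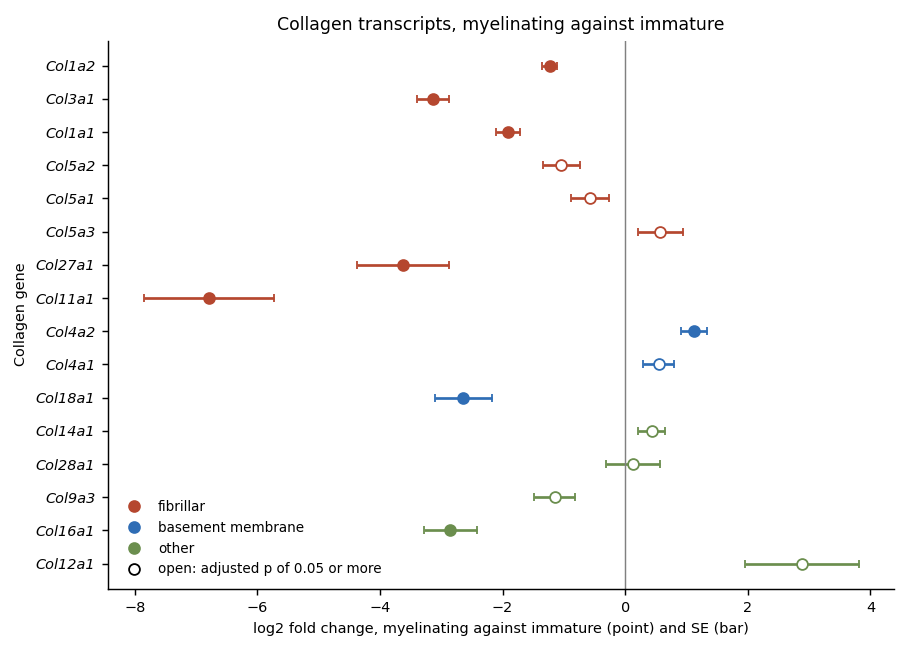
Log2 fold change between myelinating and immature sums (x axis) of the 16 collagens with a mean of 20 CPM or more (y axis), colored by class, with the SE of the edgeR fit as bars. Filled points passed an adjusted p of 0.05: 5 fibrillar genes, Col18a1 and Col16a1 lie to the left of 0 and Col4a2 to the right.

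Among the fibrillar genes, the type I chains fell the least of those called. Col1a2 (ENSMUSG00000029661, chr6:4504814-4541544, plus strand), which encodes the chain that joins a pair of Col1a1 chains in type I collagen, was at 1835 and 1951 CPM in the cycling, 1866 and 1698 CPM in the immature, 1049.6 and 1003 CPM in the intermediate and 720.3 and 797 CPM in the myelinating sums (plates 1 and 2). Immature, intermediate and myelinating sums did not overlap and were lower in that order, and Col1a2 showed a log2 change of -1.23 ± 0.12 (SE, edgeR, adjusted p = 0.000617) between myelinating and immature cells. Col1a1 (ENSMUSG00000001506, chr11:94936224-94953042, plus strand) was at 696 and 991 CPM in the cycling, 651 and 660.0 CPM in the immature, 393 and 371 CPM in the intermediate and 178 and 170.0 CPM in the myelinating sums. Its 3 non-cycling states were likewise apart, with a log2 change of -1.91 ± 0.19 (SE, edgeR, adjusted p = 0.000539). The level per kb of Col1a2 over that of Col1a1 was 3.18 and 2.85 in immature and 4.48 and 5.20 in myelinating sums, as Col1a1 was lower by the larger factor in both plates. This difference between the 2 genes was not tested, and the size of ratios per kb depends on the transcript length taken for each gene.

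Col3a1 (ENSMUSG00000026043, chr1:45311538-45349706, plus strand), whose chains form type III collagen alone, was at 1606 and 2407 CPM in the cycling, 1342 and 1594 CPM in the immature, 720.0 and 474 CPM in the intermediate and 155 and 180.1 CPM in the myelinating sums. Both myelinating sums were far below every other sum, and the gene showed a log2 change of -3.13 ± 0.26 (SE, edgeR, adjusted p = 0.000225) between myelinating and immature cells, or 8.77-fold lower. With transcript lengths of 5348 and 5564 bases, Col1a2 and Col3a1 were at about the same level per kb in cycling sums (ratio 1.19 and 0.843). Col1a2 was 4.85 and 4.60 times the level of Col3a1 in myelinating sums. With all exons the lengths are 12426 and 9816 bases, so that each of these ratios would be lower.

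Type V and XI chains take part in starting fibrils and setting their width. Col11a1 (ENSMUSG00000027966, chr3:114030540-114220718, plus strand), a chain best known from cartilage, was at 80.5 and 99.3 CPM in the cycling, 56.7 and 60.6 CPM in the immature, 3.8 and 0.514 CPM in the intermediate and 0.239 and 0.815 CPM in the myelinating sums. It was the collagen with the largest log2 change among the 16, nearly absent from myelinating and intermediate sums, with a log2 change of -6.80 ± 1.06 (SE, edgeR, adjusted p = 0.00664). The myelinating value rests on 20 and 61 reads. Col27a1 (ENSMUSG00000045672, chr4:63214004-63334991, plus strand), a fibrillar chain with the shorter helix, was at 33.4 and 64.0 CPM in the cycling, 45.5 and 88.0 CPM in the immature, 55.3 and 28.1 CPM in the intermediate and 2.34 and 8.44 CPM in the myelinating sums. The 2 myelinating sums lay below all the others, with a log2 change of -3.63 ± 0.75 (SE, edgeR, adjusted p = 0.0252). Col27a1 was not called without the wells holding fibroblast or pericyte markers, Pdgfrb included (adjusted p = 0.0588, edgeR, 505 wells).

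The 3 type V genes did not pass the threshold. Col5a2 (ENSMUSG00000026042, chr1:45374321-45503282, minus strand), which lies 24614 bases from Col3a1 end to end, was at 201 and 257 CPM in the cycling, 183 and 165 CPM in the immature, 75.7 and 138 CPM in the intermediate and 82.3 and 86.5 CPM in the myelinating sums. Its myelinating and immature sums did not overlap, with a log2 change of -1.04 ± 0.30 (SE, edgeR, adjusted p = 0.100), and it was called by DESeq2 (adjusted p = 0.0227). Col5a1 was at 76.4 and 109 CPM in the cycling, 89.6 and 138 CPM in the immature, 55.7 and 57.2 CPM in the intermediate and 74.2 and 78.6 CPM in the myelinating sums, with a log2 change of -0.58 ± 0.31 (SE, edgeR, adjusted p = 0.427). Col5a3, known from SC cultures as a chain that binds heparan sulfate, was at 45.0 and 59.0 CPM in the cycling, 93.7 and 53.3 CPM in the immature, 46.4 and 67.9 CPM in the intermediate and 95.1 and 123 CPM in the myelinating sums. Here the 2 myelinating sums were the highest, but by little on plate 1, with a log2 change of 0.57 ± 0.37 (SE, edgeR, adjusted p = 0.533).

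**Figure D3:**
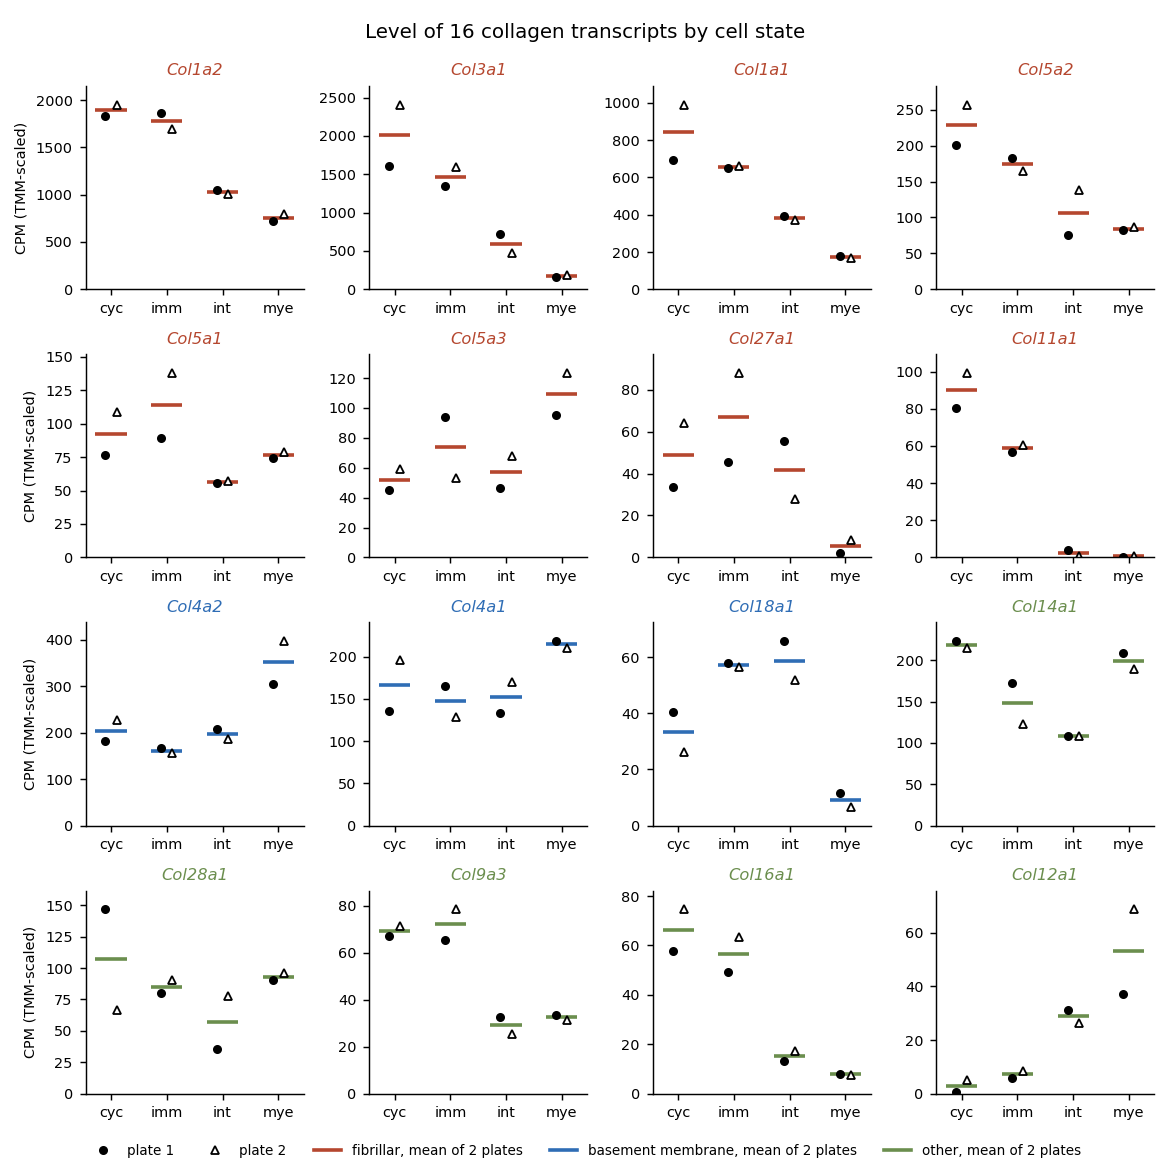
Level (y axis, CPM after TMM scaling, linear from 0) of the 16 collagens with a mean of 20 CPM or more in cycling (cyc), immature (imm), intermediate (int) and myelinating (mye) cells (x axis). Circles are plate 1, triangles plate 2 and lines the mean (n = 2), colored by class. The sums of Col1a2, Col3a1 and Col1a1 are lower from immature to intermediate to myelinating cells, whereas Col4a2 is highest and Col18a1 lowest in myelinating sums.

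The basement membrane genes split. Col4a2 was at 181 and 227 CPM in the cycling, 167 and 156 CPM in the immature, 207 and 185 CPM in the intermediate and 305 and 397 CPM in the myelinating sums. Both myelinating sums were above the 6 other sums, with a log2 change of 1.12 ± 0.21 (SE, edgeR, adjusted p = 0.0163), or 2.18-fold higher. Its call was lost without TMM scaling (adjusted p = 0.0728) and at a Pmp22 border of 20000 CPM (adjusted p = 0.0526), both by edgeR. The call was also lost without the wells holding fibroblast or pericyte markers, Pdgfrb included (adjusted p = 0.0638, edgeR). Col4a1, its partner in the type IV trimer, was at 136 and 196 CPM in the cycling, 166 and 128 CPM in the immature, 133 and 170.5 CPM in the intermediate and 219 and 211 CPM in the myelinating sums. The myelinating sums were again the highest, yet the margin was smaller and the gene had a log2 change of 0.55 ± 0.25 (SE, edgeR, adjusted p = 0.340). The level per kb of Col4a2 over that of Col4a1 ranged from 1.03 to 1.93 over the 8 sums.

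Col18a1 (ENSMUSG00000001435, chr10:77052178-77166548, minus strand) encodes a basement membrane proteoglycan whose end fragment is endostatin. It was at 40.5 and 26.3 CPM in the cycling, 57.9 and 56.5 CPM in the immature, 65.9 and 51.8 CPM in the intermediate and 11.6 and 6.71 CPM in the myelinating sums. Immature and intermediate sums overlapped, and the myelinating sums were the lowest, with a log2 change of -2.65 ± 0.46 (SE, edgeR, adjusted p = 0.0119). At least 5 reads of Col18a1 were found in 25.5% and 31.1% of immature and 5.56% and 6.19% of myelinating wells. In myelinating sums 5 wells per plate held 96.2% and 93.4% of its reads. Without the 27 wells with fibroblast markers the adjusted p was 0.0660 (edgeR, log2 change -2.56), and without the 150 wells with fibroblast or pericyte markers it was 0.134 (edgeR). Of the other members, Col15a1, which links basement membrane to fibrils, had a mean of 15.3 CPM, Col4a5 5.77, Col4a4 4.33, Col7a1 3.72 and Col4a6 0.665 CPM over the 8 sums, and none of these was called in any comparison by edgeR.

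Of the other collagens, the FACIT gene Col16a1 (ENSMUSG00000040690, chr4:130047840-130099283, plus strand) was called. It was at 57.7 and 74.7 CPM in the cycling, 49.4 and 63.3 CPM in the immature, 13.2 and 17.3 CPM in the intermediate and 8.14 and 7.45 CPM in the myelinating sums. Cycling and immature sums were all above intermediate and myelinating sums, with a log2 change of -2.85 ± 0.44 (SE, edgeR, adjusted p = 0.00584). At least 5 reads of Col16a1 were found in 25.5% and 38.5% of immature and 6.48% and 6.19% of myelinating wells. In myelinating sums 5 wells per plate held 98.1% and 93.0% of its reads. Col9a3, a chain of the FACIT collagen type IX, was at 67.2 and 71.5 CPM in the cycling, 65.5 and 78.6 CPM in the immature, 32.8 and 25.3 CPM in the intermediate and 33.7 and 31.3 CPM in the myelinating sums. It showed the same split of the sums with a log2 change of -1.15 ± 0.33 (SE, edgeR, adjusted p = 0.104), and it was called by DESeq2 (adjusted p = 0.0239) and without TMM scaling (adjusted p = 0.0263, edgeR). Its partner genes Col9a1 and Col9a2 had means of 12.8 and 11.2 CPM over the 8 sums. The use of strand in counting is not given in the sources used here. Reads of Col9a3 and Col18a1 may thus be shared with the overlapping genes Tcfl5 and Slc19a1. The same holds for Col1a2 with Gm43921, Col5a2 with Gm38211, Col4a1 with Gm44716, and Col4a1 with Col4a2.

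Col14a1, a FACIT collagen and the most abundant member of the class, was at 223 and 215 CPM in the cycling, 173 and 123 CPM in the immature, 108 and 108 CPM in the intermediate and 209 and 189.6 CPM in the myelinating sums. The intermediate sums were the lowest, and the gene had a log2 change of 0.43 ± 0.22 (SE, edgeR, adjusted p = 0.401). Col28a1, a collagen known from peripheral nerve, was at 147 and 66.9 CPM in the cycling, 79.8 and 90.7 CPM in the immature, 35.9 and 78.1 CPM in the intermediate and 90.7 and 95.7 CPM in the myelinating sums. Its states overlapped, with a log2 change of 0.13 ± 0.45 (SE, edgeR, adjusted p = 0.956), and the sign of that change turned without TMM scaling. Col12a1, a FACIT collagen of tendon and other stretched tissue, was at 0.575 and 5.25 CPM in the cycling, 6.03 and 8.38 CPM in the immature, 31.2 and 26.4 CPM in the intermediate and 37.3 and 68.8 CPM in the myelinating sums. The myelinating sums were the highest and the cycling sums the lowest, with a log2 change of 2.88 ± 0.93 (SE, edgeR, adjusted p = 0.145). It was called by DESeq2 (adjusted p = 0.0104).

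Below 20 CPM, Col26a1, Col23a1 and Col8a2 had most of their reads in myelinating wells, and Col8a1 had few there. They were chosen after their values were seen, and none was called by edgeR between these 2 states. Col26a1 was at 0 and 0 CPM in the cycling, 2.99 and 2.86 CPM in the immature, 2.24 and 10.2 CPM in the intermediate and 42.0 and 30.4 CPM in the myelinating sums. At least 5 of its reads were found in 88 of 221 myelinating wells (39.8%, exact 95% interval 33.3 to 46.6) and 8 of 228 immature wells (3.51%, exact 95% interval 1.53 to 6.80). Col23a1, a transmembrane collagen, was at 0 and 0 CPM in the cycling, 0 and 1.71 CPM in the immature, 0.727 and 8.84 CPM in the intermediate and 54.0 and 43.4 CPM in the myelinating sums, with 5 reads in 53 of 221 myelinating wells (24%, exact 95% interval 18.5 to 30.2) and 2 of 228 immature wells (0.877%, exact 95% interval 0.106 to 3.13). Col8a2, a network collagen, had 0, 0, 0, 1, 0 and 0 reads in the cycling, immature and intermediate sums and 708 and 993 reads in the myelinating sums, from 15 of 221 wells. It passed the filter on low counts through the myelinating sums alone, so that a call of it as higher there is no separate support. Its partner Col8a1 had the reverse order, with 14 of 57 cycling wells (24.6%, exact 95% interval 14.1 to 37.8) and 1 of 221 myelinating wells (0.452%, exact 95% interval 0.0115 to 2.5). Adjusted p-values were 0.116, 0.231, 0.0967 and 0.213 for Col26a1, Col23a1, Col8a2 and Col8a1 (edgeR), and DESeq2 called Col26a1, Col8a2 and Col8a1. It also called the beaded filament genes Col6a1 and Col6a3 lower. Col6a1 had 578 and 18 reads in immature and none in myelinating sums (adjusted p = 0.259, edgeR), and Col6a3 had 414 and 395 reads in immature and 1 and 0 in myelinating sums (adjusted p = 0.0523, edgeR). Wells of myelinating cells were sequenced deeper, and intervals cover counting error over wells only.

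The steps from immature to intermediate and from intermediate to myelinating cells were compared next. Between intermediate and immature cells, 3 collagens were lower, all fibrillar, and none was higher, where 1.00% of all genes tested were lower and 0.972% higher. Col1a2 showed a log2 change of -0.80 ± 0.12 (SE, edgeR, adjusted p = 0.0147), Col3a1 a log2 change of -1.30 ± 0.25 (SE, edgeR, adjusted p = 0.0343) and Col11a1 a log2 change of -4.76 ± 0.96 (SE, edgeR, adjusted p = 0.0443). With the plate as a replicate block, as the sums of a plate share their animals, Col1a2 was called (adjusted p = 0.0160) and Col3a1 and Col11a1 were not (adjusted p = 0.0568 and 0.0882, edgeR). Without the 150 wells with 5 reads or more of a fibroblast or pericyte marker, Pdgfrb included, none was called by edgeR (adjusted p = 0.0568 for Col1a2, 0.0777 for Col3a1 and 0.210 for Col11a1). Col3a1 was also not called with 2500 genes per well, an Ncmap border of 30 CPM, a Pmp22 border of 20000 CPM or without the 27 wells with fibroblast markers (adjusted p = 0.0616, 0.0580, 0.0758 and 0.0522, edgeR), and Col11a1 not at a Pmp22 border of 20000 CPM (adjusted p = 0.0812, edgeR). Col1a1 and Col16a1 were close to the threshold, with adjusted p = 0.0808 and 0.0663 (edgeR). None of the 8 basement membrane genes tested was called, with 1 at an unadjusted p under 0.05 and 1 called by DESeq2 (Col4a4), and none of the 15 other collagens, with 3 at an unadjusted p under 0.05 and 3 called by DESeq2 (Col16a1, Col6a3 and Col9a3).

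Between myelinating and intermediate cells, 3 collagens were lower and none higher, beside 0.425% lower and 0.346% higher over all genes tested. Col3a1 showed a log2 change of -1.83 ± 0.25 (SE, edgeR, adjusted p = 0.0121), Col1a1 a log2 change of -1.13 ± 0.18 (SE, edgeR, adjusted p = 0.0305) and Col18a1 a log2 change of -2.68 ± 0.46 (SE, edgeR, adjusted p = 0.0414). Each of the 3 calls was lost in at least 1 alternative. Col3a1 was not called at a Pmp22 border of 20000 CPM (adjusted p = 0.0664, edgeR), nor Col1a1 at a border of 40000 CPM (adjusted p = 0.123, edgeR). Col18a1 was not called without the 150 wells with fibroblast or pericyte markers (adjusted p = 0.215, edgeR), without the 27 wells with fibroblast markers (adjusted p = 0.163, edgeR) nor without the well with most of its reads in each sum (adjusted p = 0.0629, edgeR). DESeq2 called 6 lower and 4 higher, with Col4a2 and Col14a1 among the higher.

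Whether a gene changed more in the one step than in the other was tested as the difference of the 2 log2 changes. None of the 33 collagens was called by edgeR, where 0.130% of all genes were, with 7 at an unadjusted p under 0.05 and 3 called by DESeq2 (Col18a1, Col4a4 and Col6a1). For Col18a1 the difference was -2.72 ± 0.73 (SE, log2 scale, adjusted p = 0.312, edgeR), for Col3a1 -0.54 ± 0.42 and for Col1a2 0.36 ± 0.21.

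By edgeR, cycling and immature cells differed in the call of a single collagen. Between them 1 collagen, Col26a1, was called lower in cycling cells and none higher, where 1.29% of all genes tested were lower and 1.23% higher. A single call among 33 collagens cannot be read as an excess over that share. Col26a1 had 0 reads in both cycling sums and 2.99 and 2.86 CPM in the immature sums. With both plates together, 8 of 228 immature wells held at least 5 of its reads (3.51%, exact 95% interval 1.53 to 6.80). Among cycling wells the count was 0 of 57 (exact 95% interval 0 to 6.27). These intervals cover counting over wells and not the spread between animals. With so few wells holding the gene, they cannot decide on the call. Col26a1 was not called with the plate as a replicate block (adjusted p = 0.0699, edgeR). Its call was also lost at a Pmp22 border of 20000 CPM and without the fibroblast or pericyte wells, Pdgfrb used or not. The adjusted p in these settings was 0.110 or less (edgeR). None of the 10 fibrillar genes tested was called, none had an unadjusted p under 0.05 and DESeq2 called none. Over all 33 collagens 4 had an unadjusted p under 0.05, and DESeq2 called 3 lower (Col26a1, Col7a1 and Col9a1). Col3a1 was higher in both cycling sums than in both immature sums, with a log2 change of 0.45 ± 0.24 (SE, edgeR, adjusted p = 0.415).

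Single wells showed how the levels were spread over cells. At least 5 reads of Col1a2 were found in 99.1% and 100% of immature and 99.1% and 100% of myelinating wells (plates 1 and 2), so that its lower level in myelinating cells did not come with fewer wells. Col3a1 was found in 93.4% and 94.3% of immature, 72.2% and 82.9% of intermediate and 52.8% and 45.1% of myelinating wells. For Col11a1 the shares were 46.9% and 64.0% of cycling, 29.2% and 27.9% of immature and 1.85% and 0.885% of myelinating wells. Col4a2 was found in 61.3% and 68.0% of immature and 91.7% and 92.9% of myelinating wells, and Col12a1 in 1.89% and 3.28% and 32.4% and 48.7%.

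Because depth differed between states, each well was also thinned to 100000 reads, which left 633 wells. At this depth Col1a2 had 100 reads or more in 81.8% of cycling, 78.9% of immature, 46.1% of intermediate and 17.4% of myelinating wells. Wells with 10 to 99 reads of Col1a2 made up 78.5% of the myelinating cells. Col3a1 had no read in 3.67% of immature and 44.3% of myelinating wells. Col11a1 had no read in 69.7% of immature and 98.2% of myelinating wells, and Col4a2 in 30.7% and 8.22%. The median number of collagen genes read per thinned well was 8 to 11 in the 8 sums, and every well had a collagen read. Fibrillar reads had a median of 427 and 466 per thinned immature and 103 and 115 per thinned myelinating well, and basement membrane reads 36 and 34 against 44.5 and 46.

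**Figure D4:**
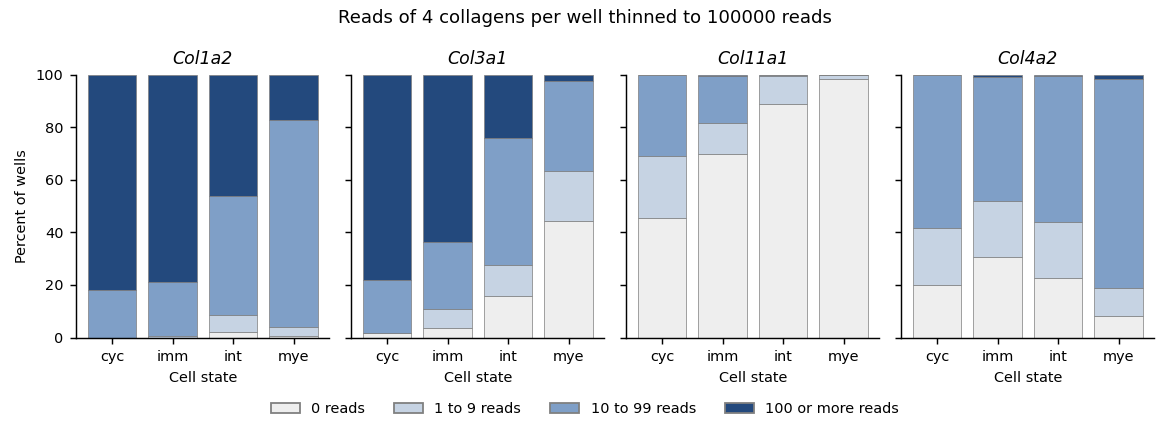
Percent of wells (y axis) with 0, 1 to 9, 10 to 99 or 100 or more reads of Col1a2, Col3a1, Col11a1 and Col4a2 after thinning each well to 100000 reads, by cell state (x axis, cyc cycling, imm immature, int intermediate, mye myelinating), both plates together. Col1a2 had reads in nearly all wells of every state with fewer reads per well in myelinating cells, while wells without Col3a1 made up 44.3% of myelinating cells.

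Across the thinned wells of one state and plate, Spearman's rho between the 7 collagens with a mean of 100 CPM or more is given as a description, since the wells share a plate and its pool of animals. The 6 pairs among the fibrillar genes Col1a1, Col1a2, Col3a1 and Col5a2 had a median rho of 0.297 and 0.201 in immature (101 and 117 wells), 0.374 and 0.317 in intermediate (72 and 69 wells) and 0.0595 and 0.0688 in myelinating cells (106 and 113 wells). Col1a2 and Col1a1 had 0.53 and 0.54 in immature and 0.21 and 0.10 in myelinating cells. Col4a1 and Col4a2 had 0.153 and 0.00672 in immature and 0.147 and -0.000500 in myelinating cells. In sparse counts such weak values carry little.

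Genes that make, cross-link, bind or degrade collagen were compared as a list of 56 genes, of which 45 were tested. Between myelinating and immature cells 4 were lower and none higher, beside 2.51% and 2.59% of all genes, and DESeq2 called 10 lower and 1 higher. The median log2 change of those tested was -0.30, beside -0.04 over all genes. The list comprised 20 genes of synthesis and folding (18 tested, 1 lower, 5 at an unadjusted p under 0.05, 3 by DESeq2), 14 of processing and cross-linking (12 tested, none called by edgeR, 4 at an unadjusted p under 0.05, 4 by DESeq2), 12 receptors (8 tested, none called by edgeR, 1 at an unadjusted p under 0.05, 1 by DESeq2) and 10 of degradation and its inhibitors (7 tested, 3 lower, 4 at an unadjusted p under 0.05, 3 by DESeq2).

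The 3 called degradation genes act together at the cell surface. Mmp14, a membrane-bound matrix metalloproteinase that activates Mmp2, was at 226 and 188 CPM in the cycling, 155 and 168 CPM in the immature, 115 and 81.7 CPM in the intermediate and 10.4 and 16.6 CPM in the myelinating sums. The myelinating sums were the lowest, with a log2 change of -3.57 ± 0.33 (SE, edgeR, adjusted p = 0.000366) against immature cells. Mmp2, a gelatinase that also cleaves type IV collagen, was at 119.8 and 115 CPM in the cycling, 105 and 153 CPM in the immature, 57.5 and 55.3 CPM in the intermediate and 17.8 and 14 CPM in the myelinating sums. Its immature, intermediate and myelinating sums were lower in that order without overlap, with a log2 change of -3.02 ± 0.32 (SE, edgeR, adjusted p = 0.000755). Timp2, an inhibitor that takes part in activating Mmp2, was at 205 and 247 CPM in the cycling, 255 and 214 CPM in the immature, 135 and 208 CPM in the intermediate and 79.8 and 96.2 CPM in the myelinating sums, with a log2 change of -1.42 ± 0.26 (SE, edgeR, adjusted p = 0.0154). Between myelinating and intermediate cells Mmp14 and Mmp2 were also lower (adjusted p = 0.00484 and 0.0333, edgeR). Between intermediate and immature cells none of the 45 was called by edgeR, with 7 at an unadjusted p under 0.05 and 4 called by DESeq2, and between cycling and immature cells none, with 4 and 2.

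In synthesis and folding, Fkbp10, an isomerase of the endoplasmic reticulum that binds procollagen, was at 116 and 119 CPM in the cycling, 109 and 115 CPM in the immature, 74.0 and 45.2 CPM in the intermediate and 18 and 24.4 CPM in the myelinating sums, with a log2 change of -2.41 ± 0.34 (SE, edgeR, adjusted p = 0.00376). The collagen chaperone Serpinh1 was at 200 and 103 CPM in the cycling, 185 and 175 CPM in the immature, 146 and 149 CPM in the intermediate and 134 and 131 CPM in the myelinating sums. Its sums ranged over less than those of Fkbp10. P4hb, a subunit of prolyl hydroxylase, was at 467 and 429 CPM in immature and 426 and 384 CPM in myelinating sums. Serpinh1 had a log2 change of -0.44 ± 0.30 (SE, edgeR, adjusted p = 0.552) and P4hb a log2 change of -0.15 ± 0.18 (SE, edgeR, adjusted p = 0.832). Adgrg6, an SC receptor that type IV collagen binds, had a log2 change of -0.46 ± 0.44 (SE, edgeR, adjusted p = 0.737). Ppib, an isomerase of the endoplasmic reticulum and the most abundant gene of the synthesis group, was at 703 and 806 CPM in immature and 540.4 and 555 CPM in myelinating sums, with a log2 change of -0.46 ± 0.14 (SE, edgeR, adjusted p = 0.114). P4ha2, a catalytic subunit of prolyl hydroxylase, was at 21.2 and 30.8 CPM in immature and 0.0358 and 0.922 CPM in myelinating sums, with a log2 change of -5.76 ± 1.84 (SE, edgeR, adjusted p = 0.143). DESeq2 called Ppib and P4ha2 lower. These 5 genes were named after their values were seen. Summed over all 20 synthesis genes the level was 1922 to 2657 CPM over the 8 sums, where the summed level of the fibrillar collagens ranged from 1310.1 to 5936 CPM.

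**Figure D5:**
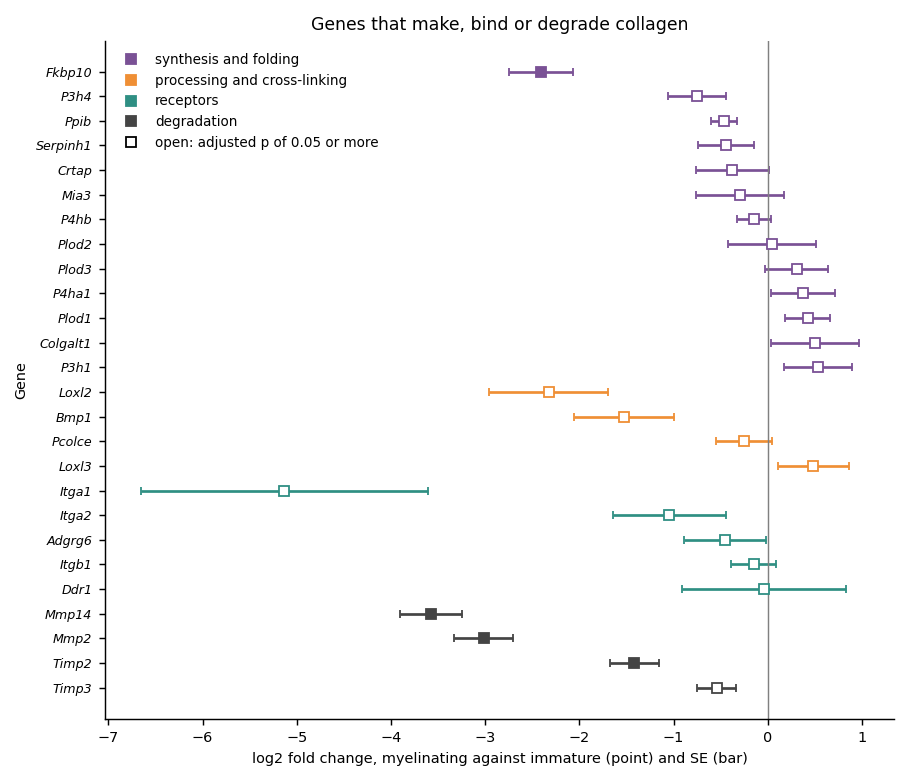
Log2 fold change between myelinating and immature sums (x axis) of the 26 tested genes of the collagen pathway list with a mean of 20 CPM or more (y axis), colored by group, with the SE of the edgeR fit as bars. Filled squares passed an adjusted p of 0.05: Fkbp10, Mmp14, Mmp2 and Timp2, all to the left of 0, while the other genes plotted were not called.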

How the data were processed

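Single YFP-positive SCs from P5 sciatic nerves were profiled by Smart-Seq2. The authors deposited 1 table of raw read counts per gene and well. The submitters' processing notes name bcl2fastq, STAR 2.6.1c, featureCounts and GRCm38.p5, the study's methods give other versions and a human build, and gene symbols here matched GENCODE mouse identifiers for 25664 of 25700 rows. Unmatched rows held 0.0821% of reads.

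Counts were summed per plate and state (n = 2 each, 8 sums) and fitted together without a block in edgeR 4.0.16 (R 4.3.3, TMM, filterByExpr). The quasi-likelihood test was used with Benjamini-Hochberg adjustment over 13904 genes at a threshold of 0.05. The 12 transcripts that define the states were part of the fit and the adjustment. They were left out only of the shares and medians over all genes, which rest on 13892 genes. Tables were made in Python 3.11.15 with pandas 2.3.3, numpy 2.4.6 and scipy 1.17.1, and the fit was tested on simulated data. Each plate holds its own animals, so that plate numbers pair the sums: plate differences of 1975 genes correlated at -0.00901 to 0.121 between states. The blocked fit is given where it changes a call. Sums of wells from 1 plate are not separate animals between states, and p-values measure the spread between 2 plates. Without molecular identifiers, intervals cover counting error only.

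Collagens with a mean of 20 CPM or more are described with all values, pathway genes when called between myelinating and immature cells, and other genes by counts and ranges. The collagens, classes and lists were chosen with earlier results of these data known. Alternatives were DESeq2 1.42.0, library size scaling, no filter, 2500 genes per well, other Ncmap and Pmp22 borders, thinned wells, the replicate block, and leaving out wells with fibroblast or pericyte transcripts, plate columns 8 and 16, the highest well or a plate. The difference between steps, the exclusion of 27 wells without regard to Pdgfrb and the other length and weighting settings were added after seeing the data. Wells under 1500 genes and corner wells were left out.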

Additional observations from a re-analysis of the deposited data

Results flagged for a closer look

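Collagen reads were also present in wells that no comparison used. The 109 wells with fewer than 1500 detected genes held 24926 collagen reads among 7310447 reads, or 3410 CPM, in 102 of the wells, and 93.1% of them were of fibrillar genes. Corner wells with 1500 genes or more held 42 collagen reads among 127106 reads, in 4 wells, and 83.3% of them were fibrillar. Both were flagged as signal outside the wells compared.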

How the results depend on the processing

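The sums rest on 2 plates, and with 1 plate left out no residual degrees of freedom remain, so that a single plate gives within-plate ratios and no calls. Collagens called between myelinating and immature cells numbered 8, with DESeq2 16, without a filter on low counts 15, and without wells holding fibroblast or pericyte transcripts 5. Between intermediate and immature cells there were 3 calls, with DESeq2 8, library size scaling 5, no filter 7, a Pmp22 border of 20000 CPM 1, a border of 40000 CPM 5, the replicate block 1, and without the fibroblast or pericyte wells 0. Between myelinating and intermediate cells there were 3, with DESeq2 10 and no filter 5, and 2 with a Pmp22 border of 20000 CPM and without the fibroblast or pericyte wells, the highest well or the 27 wells. With a border of 40000 CPM there were 3, of which 2 were among those 3 genes. Between cycling and immature cells there was 1, with DESeq2 3 and no filter 2, and 0 with a Pmp22 border of 20000 CPM, the replicate block, or without the fibroblast or pericyte wells, Pdgfrb used or not. Pathway genes numbered 4, with DESeq2 11, library size scaling 7, no filter 11 and thinned wells 7. The replicate block changed no other count of calls. The causes were not tested.

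Changes that turned sign were small and not called. With library size scaling the log2 changes were -0.0171 for Col1a2 between cycling and immature cells, -0.0902 for Col4a1 and -0.101 for Col18a1 between intermediate and immature, -0.256 for Col28a1 between myelinating and immature, and -0.0829 for Col9a3 between myelinating and intermediate cells. At a Pmp22 border of 20000 CPM Col4a1 was at -0.0704, and at 40000 CPM Col18a1 was at -0.0771 and Col9a3 at -0.0448. In thinned wells Col28a1 was at -0.111 and Col9a3 at -0.0152. Between cycling and immature cells Col9a3 was at 0.0250 with DESeq2, 0.0165 without the highest well, 0.169 without the fibroblast or pericyte wells and 0.198 with Pdgfrb not used, and Col16a1 at -0.0824 without the fibroblast or pericyte wells. Between intermediate and immature cells Col4a1 was at -0.0107 without the 27 wells, and Col18a1 at -0.0146 without plate columns 8 and 16.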
